A study of Mus musculus with 2 samples.

Results

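The genes described here encode the transforming growth factor beta (TGF-beta) and bone morphogenetic protein (BMP) signalling system: its ligands, the proteins that hold ligands latent, the receptors, the Smad proteins and their regulators. They were taken by gene symbol, and 61 of the 23477 genes in the deposited table matched. A further 2 genes fit the same symbols only under their current names: Nrros, which the table lists as Lrrc33, and Tgfbr3l, listed as Gm14378. They are reported apart from the 61. The RNA came from eosinophils, granulocytes that live in the gut wall, which were sorted by flow cytometry after enzymatic digestion of colons from naive C57BL6 wild-type mice. The study holds 1 group of 2 such samples, each made into 3 technical CEL-Seq libraries, a 3′ tag method. The sources used here give no sort gate, no number of mice per sample and no age. The table holds a single read total per transcript and a single RPKM, a level per length (reads per kilobase and per 1000000 reads). Its headers name no sample, and both values were taken as averages over the whole group. Each level below is thus 1 deposited value, without SD or n, and nothing can be compared between conditions.

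TGF-beta ligands are secreted in a latent form, bound to their own propeptide and to a carrier protein, and act only after release. A released ligand joins a type II and a type I receptor kinase. The type I kinase phosphorylates receptor-activated Smads, which enter the nucleus with the common Smad4: Smad2 and Smad3 after TGF-beta or activin, and Smad1, Smad5 and Smad9 after BMPs. Inhibitory Smads, Smurf ubiquitin ligases and the Ski family repressors restrain the pathway. In the intestine TGF-beta is known as a brake on immune responses and as a signal for the gut barrier.

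Brackets give exact 95% Poisson intervals, computed from the pooled reads of the 6 libraries and carried over to RPKM. They cover counting error only, and amplification copies may be counted as separate reads. The 6 libraries held 7692119 reads on genes. A gene listed at 0 has an upper limit of 3 reads, or 0.390 RPM, where RPM is a read number scaled to 1000000 gene reads without length.

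Of the 61 members, 20 had an RPKM of 1 or more, which is 32.8%, beside 31.0% of all genes, so this share is near the background. Another 30 were above 0 and under 1, and 11 were listed at 0 (18.0% of members, beside 31.0% of all genes). Counted above 0 were thus 50 of the 61, beside 69.0% of all genes. At an RPKM of 5 there were 9 members, beside 14.2% of all genes, and at 10 there were 6, which is 9.84%, beside 8.77%. Their median was an RPKM of 0.292, beside 0.186 over all genes, and together they held 0.217% of the reads. Counted without length, 42 of the 61 had an RPM of 1 or more, which is 68.9%, beside 50.9% of all genes. At a minimum of 1 the share was thus near the background by RPKM and above it by RPM. The RPM minimum is the looser of the 2, passed by 50.9% of all genes beside 31.0%. Effects of length and of the looser minimum cannot be told apart from these counts. The 13 intracellular members (Smads, Smurf ligases and nuclear repressors) had a median of 2.47, and 8 of them, 61.5%, reached an RPKM of 1. The 28 ligand genes had 4, 14.3%, and a median of 0.116.

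**Figure D1:**
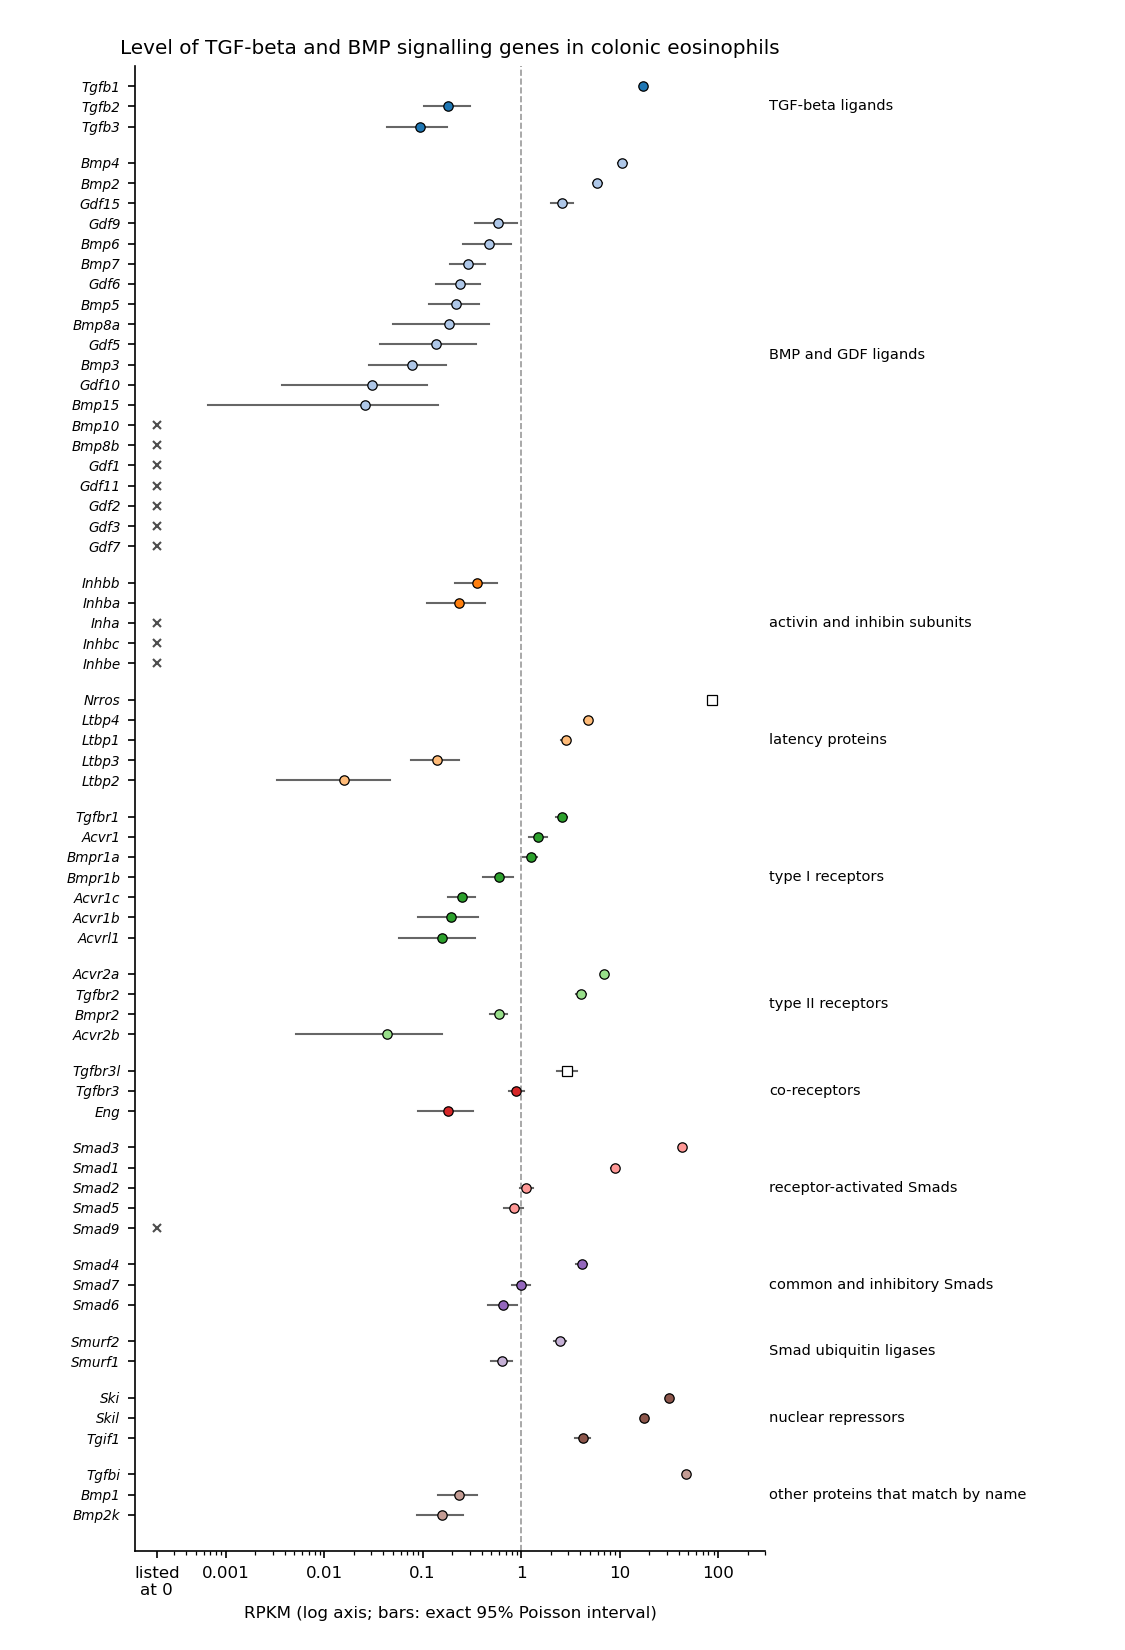
RPKM of the 61 members (circles) and of Nrros and Tgfbr3l (open squares), grouped by role, on a log axis with exact 95% Poisson intervals of the pooled reads; crosses mark genes listed at 0 and the dashed line an RPKM of 1. Most ligand genes lie left of the line, whereas Smad3 at 42.6, Ski at 31.7 and Tgfb1 at 17.3 lie far to its right.

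Among the TGF-beta ligands, the level lay almost wholly in 1 gene. Tgfb1, the isoform that leukocytes are best known to make (NM_011577, mm10 chromosome 7 from 25687002 to 25704996), had an RPKM of 17.3 (16.1 to 18.5) from 781 reads. Tgfb2 had 0.183 (0.102 to 0.302) from 15 reads. Tgfb3 had 0.0942 (0.0431 to 0.179) from 9 reads. The RPKM of Tgfb1 was 94.4 times that of Tgfb2 (56.9 to 170), and its reads were 52.1 times as many (31.4 to 93.5). The intervals of Tgfb2 and Tgfb3 overlapped.

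The highest gene named by the rule, once current symbols were used, was a latency protein. Nrros, a membrane protein that tethers latent TGF-beta1 on myeloid cells and also limits the NADPH oxidase, had an RPKM of 86.1 (83.9 to 88.3) from 5809 reads and ranked 352 of all 23477 genes. The table places it (NM_146069) on mm10 chromosome 16 from 32142825 to 32165476. Its RPKM was 17.9 times (16.4 to 19.7) that of Ltbp4, the highest member of the same role. Its reads were 11.3 times as many (10.3 to 12.4). Lrrc32, which encodes GARP, the related tether on regulatory T cells and platelets, had 0.174 (0.0993 to 0.282) from 16 reads. Nrros thus stood 495 times higher by RPKM (305 to 867) and 363 times higher by reads (223 to 636). Lrrc32 was singled out after its value was seen.

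The latent TGF-beta binding proteins anchor ligand in the matrix. Ltbp4 had an RPKM of 4.80 (4.39 to 5.23) and Ltbp1 2.84 (2.56 to 3.15), with intervals that did not overlap. Ltbp3 and Ltbp2 stood at 0.141 and 0.0159, the latter from 3 reads. So 2 of these 4 genes had an RPKM of 1 or more, beside 31.0% of all genes.

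Of 19 genes that process or release latent ligand, 13 had an RPKM of 1 or more. That is 68.4% of the list, beside 31.0% of all genes. Tgm2, a transglutaminase that crosslinks latent complexes to matrix, led at 564, followed by the matrix protein Thbs1, an activator of latent TGF-beta1, at 131. Next came Itgb3, the integrin beta3 chain, at 54.9 (53.5 to 56.4). Furin, the protease that cuts the TGF-beta propeptide, had 24.1, and Itgav, the alpha V chain that pairs with beta3, beta6 and beta8, had 15.9. The chains of the integrins best known to release TGF-beta in tissues were near 0: Itgb8 had 2 reads and Itgb6 was listed at 0. Furin, Itgav, Itgb8 and Itgb6 were named after their values were seen.

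BMP and growth differentiation factor (GDF) genes made up the largest role, with 20 members. Of these, 3 had an RPKM of 1 or more (15%, beside 31.0% of all genes) and 10 lay under 1. Another 7 were listed at 0 (35%, beside 31.0% of all genes). Bmp4, a ligand of the intestinal stroma, had 10.7 (9.64 to 11.8) from 380 reads. Bmp2, a close relative of Bmp4, had 5.95 (5.34 to 6.62) from 342 reads. Gdf15, a stress-induced cytokine that signals through the receptor Gfral, had 2.63 (2.02 to 3.36) from 63 reads. Bmp4 exceeded Bmp2 by 1.79 times per length (1.55 to 2.08), but their read numbers differed by only 1.11 times (0.958 to 1.29), an interval that includes 1. Below these, Gdf9, known from the oocyte, had 0.578 and Bmp6, which controls hepcidin in the liver, had 0.468. The 8 others above 0 ran from Bmp7 at 0.292 down to Bmp15 at 0.0259, which rested on 1 read. Bmp10, Bmp8b, Gdf1, Gdf11, Gdf2, Gdf3 and Gdf7 were listed at 0. Of the searched sequence of Gdf1, 98.9% is also in a transcript of another gene, so its 0 is uncertain.

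Activin and inhibin subunits were low. Inhbb, an activin beta chain, had 0.361 (0.214 to 0.570) and Inhba, the other common beta chain, 0.232 (0.111 to 0.426), with overlapping intervals. Inha, Inhbc and Inhbe were listed at 0. Among 5 other ligands of the superfamily none had an RPKM of 1 or more, beside 31.0% of all genes. Lefty1, an inhibitor of Nodal, had 0.159 from 5 reads and the muscle growth inhibitor Mstn 0.0545 from 3, and Nodal, Lefty2 and Amh were listed at 0.

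Extracellular antagonists were sparse too: the median was 0.10, and 4 of 20 genes reached an RPKM of 1. That is 20.0%, beside 31.0% of all genes. The matrix proteoglycan Dcn, which binds TGF-beta, had 23.8, the BMP antagonist Nbl1 6.41 and the follistatin-like protein Fstl1 3.66. The classical BMP traps lay lower: Grem1 had 0.646, Chrd 0.0940 and Nog 0.0916, and these genes were named after their values were seen.

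Marker genes of other colonic cells were present in the same libraries. Of 10 eosinophil markers 9 had an RPKM of 1 or more, with a summed RPKM of 854, and the granule peroxidase Epx was the exception at 0.265. All 10 epithelial markers did so, with a sum of 264, as did 6 of 8 fibroblast markers with 161, 5 of 6 smooth muscle markers with 54.5, 6 of 8 goblet markers with 156 and 9 of 12 macrophage and monocyte markers with 162. For endothelium it was 2 of 8 with a sum of 24.9, of which Pecam1, which leukocytes and platelets also express, had 16.3 and Tie1 6.15. The endothelial genes Cdh5 and Kdr had 0.535 and 0.122. B and plasma cell markers had 4 of 7, T cells 3 of 8 and neutrophils 2 of 7, with sums of 49.2, 4.81 and 34.9. Mast cells and basophils had 1 of 8 and dendritic cells 0 of 6, with sums of 3.06 and 0.486. Of all genes, 31.0% had an RPKM of 1 or more. The T cell (37.5%), neutrophil (28.6%) and endothelial (25.0%) shares were near that, and those of mast cells and basophils and of dendritic cells were under it. Of the B and plasma cell sum, Jchain gave 44.1. Mzb1 of the same list, at 1.83, is uncertain, since 99.8% of its searched sequence is also in transcripts of other genes. Foxp3, Mertk, Mpo, Elane, Fcer1a, Mcpt4, Tpsb2 and Cd209a were listed at 0. Bmp2, Bmp4, Ltbp1, Ltbp4 and Dcn are known to be made by stromal or epithelial cells. The part of such cells, of macrophages or of other cell types in any level given here was not tested. This holds for Nrros and Tgfbi too. The marker lists differ in length and not every marker is confined to 1 cell type, eosinophil markers included, so the sums are no shares of cells. In these bulk libraries, fewer cells of a type and less RNA per cell cannot be told apart.

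Both subunits of the TGF-beta receptor were present. Tgfbr2, the type II kinase that binds TGF-beta (NM_029575, chromosome 9 from 116087695 to 116175363), had an RPKM of 4.07 (3.65 to 4.53) from 334 reads. Tgfbr1, its type I partner, had 2.59 (2.27 to 2.94) from 238 reads. Tgfbr2 was thus 1.57 times as high (1.33 to 1.87).

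The highest receptor gene, however, was Acvr2a, a type II receptor for activins that also takes BMPs, at 7.03 (6.47 to 7.62) from 586 reads. By RPKM it stood 1.73 times above Tgfbr2 (1.51 to 1.98) and 11.9 times above Bmpr2 (9.64 to 14.8). By reads these ratios were 1.75 (1.53 to 2.01) and 5.69 (4.61 to 7.08). Bmpr2, the type II receptor dedicated to BMPs, had 0.590 (0.482 to 0.716), and Acvr2b, the close relative of Acvr2a, 0.0432 from 2 reads. The 3′ end of Acvr2a overlaps Orc4 on the other strand, whose highest overlapping row had 53 reads, and whether counting used strand is unknown here.

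Type I receptors for BMPs came below Tgfbr1. Acvr1, also called ALK2, had 1.49 (1.20 to 1.82) and Bmpr1a 1.25 (1.05 to 1.47), with overlapping intervals. Bmpr1b, with the same ligands, had 0.595. The activin type I receptor genes Acvr1c and Acvr1b stood at 0.253 and 0.194, and the endothelial receptor Acvrl1 at 0.157. In all, 5 of the 13 receptor and co-receptor members had an RPKM of 1 or more, which is 38.5%, near the 31.0% of all genes. None of the 13 was listed at 0, beside 31.0% of all genes.

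Neither co-receptor member had an RPKM of 1 or more. Tgfbr3, betaglycan, which presents TGF-beta2 to the kinases, had 0.896 (0.746 to 1.07), and Eng, endoglin, an endothelial co-receptor, had 0.181 from 11 reads. Tgfbr3l, which is matched only under its current symbol, had 2.94 (2.30 to 3.71), but 86.9% of its searched sequence is shared with another gene and its value is uncertain. Of 15 other receptor modulators 4 had an RPKM of 1 or more, which is 26.7%, near the 31.0% of all genes. Fkbp1a, which binds and silences type I receptors, led at 130 (127 to 134), followed by Pmepa1, a feedback inhibitor that holds Smads back, at 8.86 and the receptor-associated protein Tgfbrap1 at 3.84. Bambi, a pseudoreceptor named after its value was seen, had 0.251.

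Smad3 was the highest signalling member. The gene (NM_016769, chromosome 9 from 63646767 to 63757994) had an RPKM of 42.6 (41.3 to 44.0) from 3921 reads and ranked 679 of all genes. Smad2, the other TGF-beta Smad, had 1.13 (0.969 to 1.32) from 170 reads. The ratio was 37.6 by RPKM (32.2 to 44.1) and 23.1 by reads (19.8 to 27.1). Smad2 has 2 rows with 170 reads each, and with rows summed the RPKM ratio falls to 18.9. Of the TGF-beta and activin Smads, Smad3 held most of the level either way.

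In the BMP branch Smad1 led with 9.03 (8.19 to 9.92), 10.7 times Smad5 (8.45 to 13.7), which had 0.842 (0.671 to 1.04). By reads this ratio was 5.17 (4.08 to 6.62). Smad9 was listed at 0. Summed RPKM was 43.7 for Smad2 and Smad3 and 9.87 for Smad1, Smad5 and Smad9. Smad4, the partner that both branches share, had 4.12 (3.61 to 4.68), and Smad3 exceeded it by 10.3 times (9.07 to 11.9).

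The inhibitory Smads, which are feedback targets of the pathway, were low. Smad7, which blocks the TGF-beta receptor, had 0.997 (0.804 to 1.22) from 92 reads, just under the minimum, and Smad6, which mainly blocks BMP signals, had 0.657 (0.458 to 0.914) from 35 reads. Their ratio was 1.52 (1.02 to 2.31). Just inside the minimum of 1 lay Smad2 at 1.13.

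Members that lie close together on a chromosome could differ widely in level. Smad6 lies 195 kb from Smad3, from 63953076 to 64022059, and Smad3 was 64.8 times as high (46.5 to 93.2). Tgfbi and Smad5 are 64.3 kb apart on chromosome 13, at 47.2 and 0.842. Gdf15 and Gdf1 on chromosome 8, 298 kb apart, had 2.63 and 0, but the 0 of Gdf1 is uncertain because of shared sequence. Of 9 neighbouring pairs less than 500 kb apart, Inhbe and Inhbc were both listed at 0. Acvrl1 and Acvr1b were both low at 0.157 and 0.194, as were Gdf10 and Gdf2 at 0.0306 and 0. Bmp8b and Bmp8a had 0 and 0.186. Acvr1c and Acvr1 had 0.253 and 1.49, and Gdf2 and Bmpr1a 0 and 1.25.

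The start-site windows of 2 members are printed because they hold letters that Smads are known to bind: Smad6, the low inhibitory Smad, and Ski, the highest nuclear repressor. Windows from RefSeq (GRCm38.p6), with 250 bases before and 50 after each start, were found for 46 of the 61 members, 61 windows in all. The palindrome GTCTAGAC was in 1 of them, that of Smad6, and in 0.213% of all 32851 windows. The GC-rich letters GGCGCC were in 15 windows of 13 members, 24.6% of the member windows, beside 11.9% of all. Each motif reads the same on both strands, and the pair cannot overlap. A match is a description of the sequence and shows no binding. Both windows are given 5′ to 3′ on the minus strand, which is the gene's strand, with the motif in capitals.
Smad6 at chr9:64022010-64022309: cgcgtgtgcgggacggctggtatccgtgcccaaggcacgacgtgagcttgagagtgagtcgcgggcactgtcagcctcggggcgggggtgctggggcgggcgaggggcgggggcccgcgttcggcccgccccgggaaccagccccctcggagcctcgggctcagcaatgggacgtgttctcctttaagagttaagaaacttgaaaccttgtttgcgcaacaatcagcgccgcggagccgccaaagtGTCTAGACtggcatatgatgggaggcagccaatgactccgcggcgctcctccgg
Ski at chr4:155222486-155222785: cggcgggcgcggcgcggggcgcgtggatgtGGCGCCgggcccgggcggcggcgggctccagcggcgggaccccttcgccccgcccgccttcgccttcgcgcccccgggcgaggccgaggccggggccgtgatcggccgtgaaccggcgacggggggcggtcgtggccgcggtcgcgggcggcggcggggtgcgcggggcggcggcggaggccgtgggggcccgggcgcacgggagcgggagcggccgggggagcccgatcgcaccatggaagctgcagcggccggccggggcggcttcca

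The Ski family repressors bind Smads on DNA and shut off target genes, and their transcripts were among the highest of the members. Ski (NM_011385, chromosome 4 from 155154075 to 155222535) had 31.7 (30.6 to 32.9) from 2988 reads. Skil, which encodes SnoN and is itself induced by TGF-beta (NM_001271772, chromosome 3 from 31095058 to 31122923), had 17.7 (16.9 to 18.6) from 1720 reads. Ski was 1.79 times as high as Skil (1.69 to 1.90), or 1.58 times with rows summed. Tgif1, a homeodomain repressor of Smad2 and Smad3 complexes, had 4.24 (3.55 to 5.03). All 3 nuclear repressors thus had an RPKM of 1 or more, beside 31.0% of all genes.

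How reads were shared out among transcripts of a gene matters most for Tgif1. The 61 members have 90 rows in the table. Of the 16 members with several rows, 7 have reads in more than 1 row, and in 5 of these at least 2 rows list the same number of reads. Tgif1 has 5 rows, 1 with 132 reads and 4 with 67 each, and its RPKM is 16.8 if rows are summed. Smad2 lists 170 reads in both of its rows and Smurf1 67 in both, which gives sums of 2.25 and 1.28. Whether such equal rows count the same reads was not tested. Skil lists 1720, 282 and 70 reads in 3 rows with the same span, and its sum is 20.1. Smurf1 is the member that passes an RPKM of 1 by summing.

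**Figure D2:**
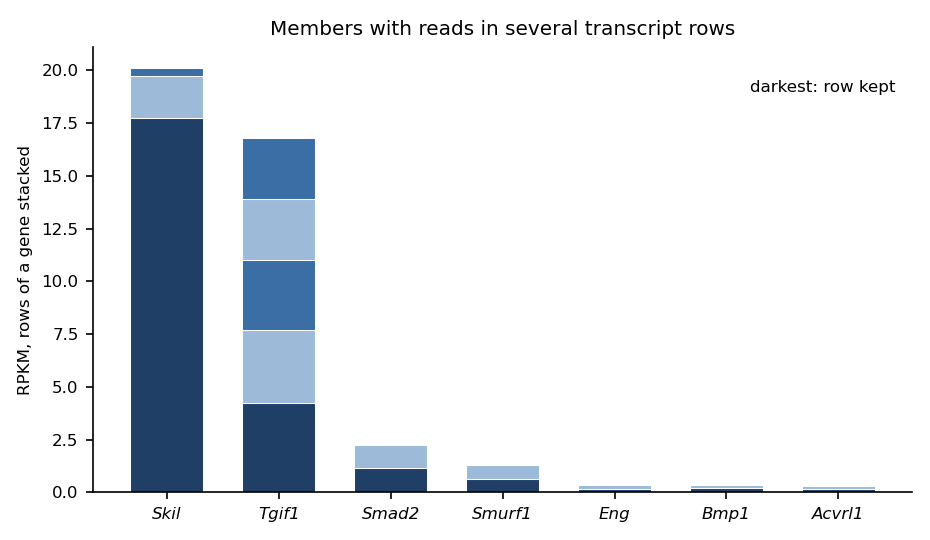
RPKM of the 7 members with reads in several transcript rows, with the rows of a gene stacked and the row kept as the gene's value at the bottom. Tgif1 rises from 4.24 for the row kept to 16.8 for all 5 rows, whereas Skil moves only from 17.7 to 20.1.

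The Smurf ubiquitin ligases mark Smads and receptors for breakdown. Smurf2 had 2.47 (2.15 to 2.83), 3.87 times Smurf1 (2.93 to 5.17), which had 0.639 (0.495 to 0.811). With the rows of Smurf1 summed the ratio is 1.94. Of 15 other ligases, deubiquitinases, phosphatases and adaptors of Smads, 12 had an RPKM of 1 or more. That is 80.0% of the list, beside 31.0% of all genes, and the median was 2.11. The phosphatase Ctdsp1, which removes phosphates from Smad linkers, led at 45.9 (44.2 to 47.7). Ppm1a, described as a phosphatase of the activated Smad tail, had 16.8, and the deubiquitinase Usp4, which stabilizes Tgfbr1, had 15.4.

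Of 24 nuclear partners 18 reached an RPKM of 1, 75.0% of the list, beside 31.0% of all genes. Their median was 5.12, beside 0.186 over all genes. The stress-induced factor Atf3, which can act with Smad3, led at 467, ahead of the co-repressor Ncor1 at 95.2 and Snw1, a Ski-binding coactivator, at 68.4. Runx3, a partner in TGF-beta responses of leukocytes, had 17.8 and the Smad-binding repressor Zeb2 had 12.7. Runx3 and Zeb2 were named after their values were seen. Foxh1, the embryonic partner of Smad2, was listed at 0.

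Genes known to respond to TGF-beta or BMP differed widely among themselves. Of 30, 17 had an RPKM of 1 or more, 56.7% beside 31.0% of all genes, and the median was 1.34. The highest were the cell cycle inhibitor Cdkn1a at 1394, the AP-1 subunit Junb at 1240 and the growth factor Vegfa at 248, each of which many other stimuli also induce. The BMP response genes Id1 and Id3, inhibitors of basic helix-loop-helix factors, had 51.4 (47.8 to 55.2) and 6.66 (5.52 to 7.96). Klf10, an early TGF-beta response gene, had 5.31. In contrast, Ctgf had 0.495 (0.326 to 0.721), the integrin chain Itgae rested on 1 read, and Myc, which TGF-beta represses in epithelium, was listed at 0. The genes from Id1 to Myc were named after their values were seen. With no untreated or blocked sample, no response to a ligand can be read from these levels.

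**Figure D3:**
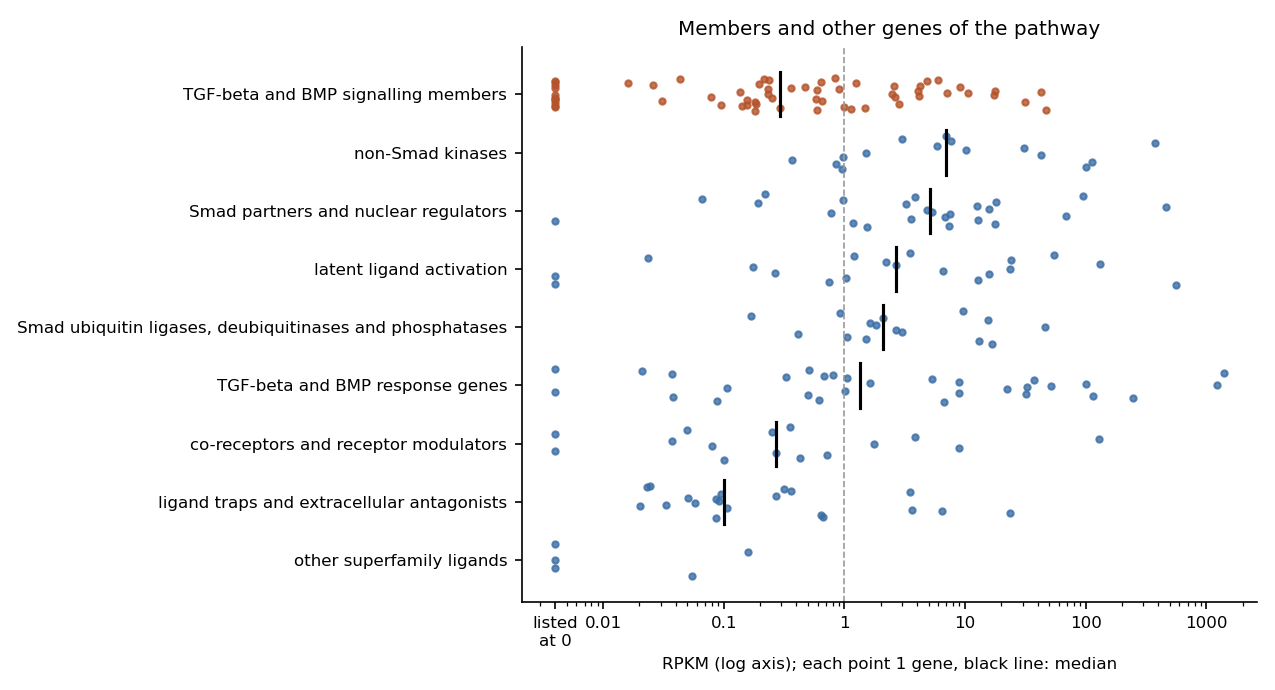
RPKM on a log axis of the 61 members (top) and of 8 other gene lists of the pathway, each point a gene and each black line a median; genes listed at 0 stand at the left, and a list with a median of 0 has no line. The median of the members is 0.292, that of the extracellular antagonists 0.10 and that of the Smad partners 5.12.

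Over these 8 lists, 78 of 142 genes had an RPKM of 1 or more, 54.9%, beside 31.0% of all genes. The highest shares were in the intracellular lists and in latent ligand activation, and the lowest in the antagonists at 20.0% and the other ligands at 0. Lists of known pathway genes are not a random draw of the genome, and these shares are descriptions.

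The symbols also take in 3 proteins that are no core part of the pathway. Tgfbi, a secreted adhesion protein named for its induction by TGF-beta, had an RPKM of 47.2 (45.2 to 49.2) from 2257 reads, the highest of the 61. Bmp1, a procollagen protease, had 0.233 and Bmp2k, an endocytic kinase, 0.157. Without them 19 of the members had an RPKM of 1 or more.

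In the order of the 20 members at an RPKM of 1 or more, 11 of the 19 neighbouring pairs had overlapping intervals. Tgfbi, Smad3 and Ski each stood above the next member by more than counting error, whereas Skil overlapped Tgfb1. By RPKM, Ltbp4, Tgif1, Smad4 and Tgfbr2, between 4.80 and 4.07, formed a run without separation, as did Ltbp1, Gdf15, Tgfbr1 and Smurf2, between 2.84 and 2.47. By reads, members of these runs did separate. Ltbp4 had 515 (471 to 561) and Tgif1 132 (110 to 157), and Ltbp1 had 367 (330 to 407) and Gdf15 63 (48.4 to 80.6).

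Without length the order changed in places. By RPM Smad3 came first among the 61 at 510, Ski next at 388 and Tgfbi after them at 293. Gdf15 moved from place 15 by RPKM to place 25 by RPM, and Tgif1 from 11 to 18. Ltbp1 moved up from place 14 to place 10. The highest gene of each of the 12 roles was the same on both scales.

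**Figure D4:**
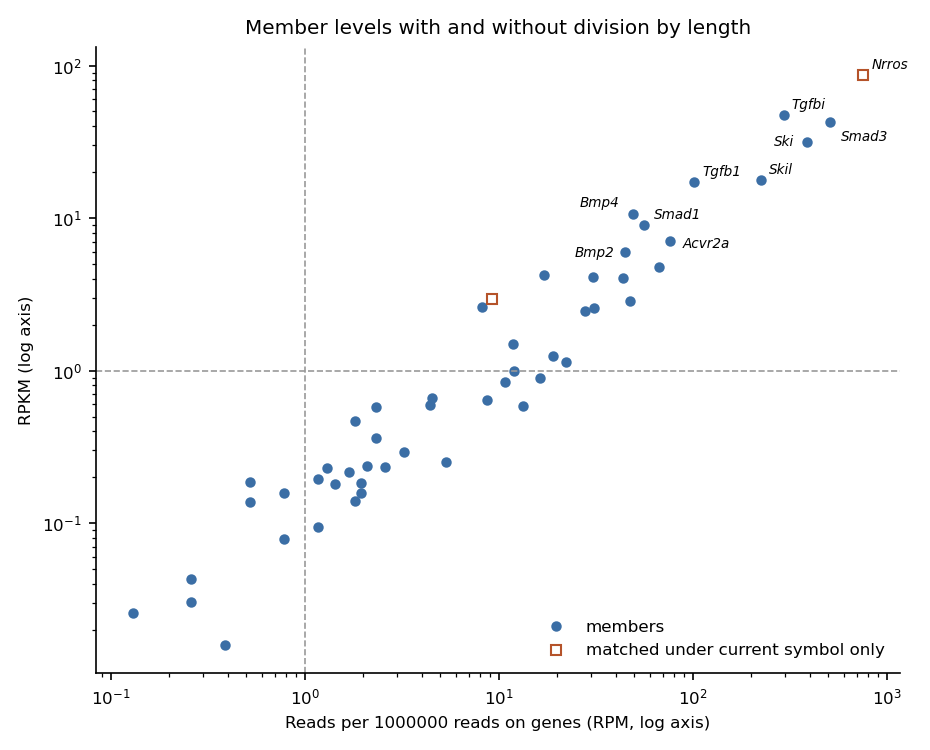
RPKM against RPM, both on log axes, for the members above 0 (filled) and for Nrros and Tgfbr3l (open); dashed lines mark 1 on each scale and names are given from an RPKM of 5 upward. Of the 61 members, 20 lie above the horizontal line and 42 right of the vertical line.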

How the data were processed

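STAR 2.4.2a, DESeq and the build mm10 are named, per the submitters' processing notes. The counter, annotation release and handling of multiply aligned reads were not given in the sources used here. There are 31295 transcript rows in the deposited table. The RPKM values were used as deposited, and how they were computed is not given in the headers, which name no sample. The deposited read totals were taken as means over 6 libraries, because 100% are whole within 0.001 after multiplication by 6, which gave the reads. There were 0 columns of other samples.

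Per gene the row with the most reads was kept, with ties broken by RPKM. Current symbols came from RefSeq accessions, for 30730 rows. RPM divided reads by the reads on genes. Of 92 rows of the 61 members and the 2 genes under current symbols, all 92 lay on the same chromosome as in GENCODE M21 and 42 had an equal start, so coordinates are as given, in mm10. RPKM divides by transcript length although CEL-Seq tags do not grow with length, which lowers long transcripts. Intervals ignore unequal library depths. Shared sequence was measured on the final 500 bases of a gene's longest GENCODE transcript, as the percent of its words of 35 bases found in transcripts of other genes.

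The members and lists were chosen with earlier results of these data known. Named were members at an RPKM of 1 or more, the highest of each role and the 3 highest of each other list; other names were chosen after their values were seen, as were the pairs compared outside neighbours in a role. The 2 samples form 1 group, so no test was run. Of 240 list genes, Trac and Ly6g were not matched. Alternatives were other minimums, RPM, rescaled RPKM, other row choices and leaving out genes by shared words or by name; adding the genes under current symbols and summing rows in 3 ratios were chosen after seeing the data. Tables were made in Python 3.11.15 with pandas 2.3.3 and numpy 2.4.6, intervals with scipy 1.17.1, and figures with matplotlib 3.10.9. The intervals were run on simulated reads with Poisson error, which checks their computation only. Such reads hold no amplification copies, unequal depths or spread between samples.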

Additional observations from a re-analysis of the deposited data

How the results depend on the processing

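The number of members at the minimum, 20, became 42 by RPM, 33 on RPKM rescaled to a sum of 1000000 (54.1%, beside 47.4% of all genes), 9 at an RPKM of 5, and 50 when each value above 0 counted. It stayed between 19 and 22 under the other 5 alternatives. The median RPKM of the members, 0.292, was 0.617 for members above 0, and the median RPM was 2.34; under the other alternatives it lay between 0.292 and 0.361. For the other pathway lists, the 78 of 142 genes became 132 above 0, a minimum that 69.0% of all genes passed. They became 108 by RPM (passed by 50.9% of all genes) and 104 on rescaled RPKM (47.4%). At an RPKM of 5 they became 51 (14.2%). Under the remaining alternatives the number was 78 or 80. The leading genes of all 12 roles were the same by RPM, by the row with the highest RPKM, by the sum over rows and without genes of shared sequence; with the genes under current symbols 10 were, since Nrros then led the latency proteins and Tgfbr3l the co-receptors. Leaving out a replicate was not run, since the table gives 1 value for both samples. No paired analysis was possible because there is 1 group. Members under about 10 reads, such as Acvr2b with 2, are set by counting error.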

Other observations

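Besides the Smads, TGF-beta receptors are known to signal through kinases and small GTPases. Of 15 genes listed for these routes, which also include adaptors, ubiquitin ligases and phosphatase subunits, 11 had an RPKM of 1 or more. That is 73.3% of the list, beside 31.0% of all genes, and the median was 7.02. The small GTPase Cdc42 led at 379 (373 to 386), followed by the catalytic and scaffold subunits of protein phosphatase 2A, Ppp2ca at 113 (110 to 117) and Ppp2r1a at 101 (97.3 to 104). Rhoa, which drives the actin cytoskeleton, had 42.7 (40.8 to 44.8). Of the TAK1 complex, the adaptor Tab2 had 31.0 (29.7 to 32.3), the kinase Map3k7 1.52 (1.29 to 1.79) and the adaptor Tab1 0.368 (0.230 to 0.557). Rhoa and the genes of the TAK1 complex were named after their values were seen. These genes serve many other pathways.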
